A study of Saccharomyces cerevisiae with 4 samples.

Results

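The genes described here encode the translation initiation, elongation and termination factors of budding yeast cytoplasm, 36 genes chosen by name from knowledge of the pathway. A probe set that the annotation ties to the gene was found for 34 of the 36, out of 5449 genes measured in the series. For 2 of the 34 it is of a kind marked as cross-hybridising. TIF1 and TEF1 had none. Their partners TIF2 and TEF2, which encode the same eIF4A and eEF1A proteins, were read by probe sets of the kind marked as shared between transcripts, so those values may include TIF1 and TEF1 and are uncertain. The study compared dis3E729K cells, which carry a missense allele of the exosome ribonuclease gene DIS3, with wild-type cells, 2 cultures of each genotype and 1 Affymetrix array per culture. Cells of both genotypes were labelled as BY4741, carried URA3 next to DIS3, and were grown at 30 °C in drop-out medium to mid-log phase before total RNA was taken. How the allele was introduced, and whether the 2 mutant cultures came from separate clones, is not given in the sources used here.

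Translation of an mRNA begins when eIF4E, eIF4G and the helicase eIF4A open its capped end. The small ribosomal subunit then arrives with eIF3, eIF1, eIF1A, eIF5 and the complex of eIF2, GTP and initiator tRNA. eIF2B recharges eIF2 with GTP, eIF5B joins the large subunit, eEF1A, eEF1B, eEF3 and eIF5A serve elongation, and the release factors eRF1 and eRF3 end synthesis. In growing yeast the mRNAs of these factors are among the abundant ones, and many change with growth rate together with ribosomal protein mRNAs.

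Values are RMA log2 intensities, so a difference of 1 is a doubling, and levels are compared for one gene across arrays and not between genes. All 34 measured genes lay far above the background level of 4.06, with means over the arrays from 10.60 for EAP1 to 14.50 for TEF2. Array quartiles over all genes were nearly identical, since RMA equalises them, so a change of all mRNA per cell cannot be seen. In RNA from a whole culture, less transcript in every cell and fewer cells with the transcript cannot be told apart. DIS3 itself read 11.65 and 11.82 in wild type and 11.49 and 11.12 in the mutant (adjusted p = 0.154). A missense allele need not change the level of its mRNA, so these values do not check the genotype labels.

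The cultures differed in mating type by replicate number. The 7 genes listed for a cells had medians of 11.06 and 11.36 in wild type and mutant replicate 1, and of 6.64 and 5.61 in replicate 2. The 6 measured genes listed for alpha cells ran the other way, with medians of 6.77 and 6.38 in replicate 1 and 12.75 and 11.90 in replicate 2, although BY4741 is an a strain. The methionine gene MET17 is deleted in BY4741, yet wild type replicate 2 gave a signal of 9.55 for it, while the remaining 3 arrays lay between 3.22 and 3.47. The part of strain background in the results below was not tested, and each of the 34 genes is given with its values on the arrays or its differences within the replicate numbers.

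The comparison asks whether mRNAs of the translation machinery differ when the exosome ribonuclease is altered. None of the 34 measured genes passed limma's test at a Benjamini-Hochberg adjusted p of 0.05 over all genes tested, where 8.15% of the 5449 genes were called lower and 7.71% higher. At an unadjusted p under 0.05, 4 of the 34 were lower and 1 was higher, against 22.6% and 18.1% of all genes. These 5, SUI1, GCD6, HCR1, TIF4631 and EAP1, are singled out below after their values were seen. The point estimate lay below zero for 29 of the 34 genes, for 55.3% of all genes, and for 62.1% of the 739 genes with a mean of at least 12. The median of the gene means was 12.55 for the 34 genes and 10.26 for all genes. With quantile normalization over the tested genes, or with median centring, it lay below zero for 27 genes, as TIF2 and YEF3 turned to values just above zero. The median log2 difference was -0.19 over the 34 genes and -0.07 over all genes. The differences were small: 17 of the 34 lay within 0.2 of zero, against 28.3% of all genes, and 3 reached 0.5 in size, against 39.9%.

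**Figure D1:**
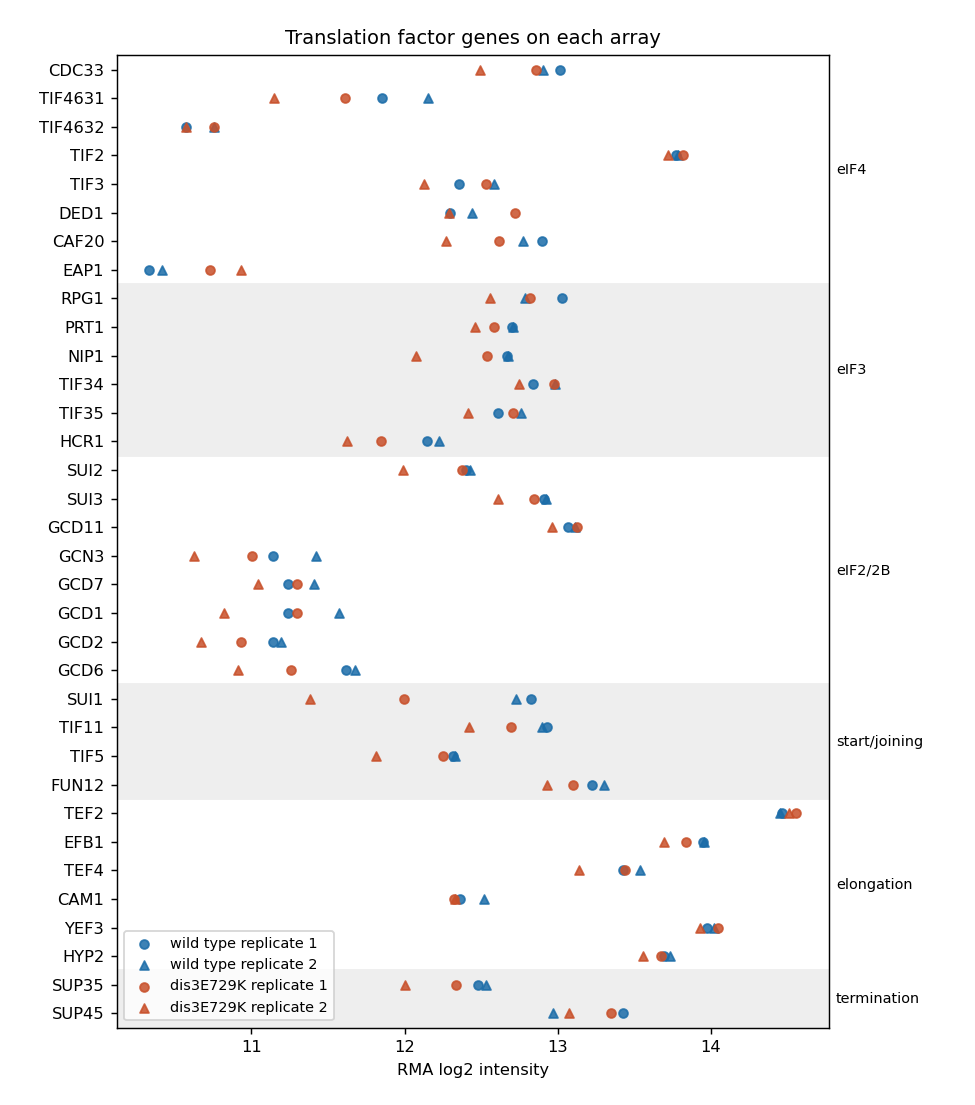
RMA log2 intensity (horizontal axis) of the 34 measured translation factor genes (rows, grouped by role) on each array; blue marks are wild type, orange marks dis3E729K, circles replicate 1 and triangles replicate 2. For 29 of the 34 genes the lowest mark is the orange triangle, dis3E729K replicate 2, which was the lowest array for 42.4% of all genes tested.

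The size of the shift differed between the replicate numbers. Within the replicate 1 arrays 21 of the 34 genes were lower in the mutant, with a median of -0.07. Within the replicate 2 arrays 31 were lower, with a median of -0.37. Over all genes 53.8% and 56.3% were lower, with medians of -0.04 and -0.11. For 32 of the 34 genes the difference was further below zero in replicate 2 than in replicate 1, against 57.1% of all genes. Cultures of one genotype differed too. Mutant replicate 2 read below mutant replicate 1 for 32 of the 34 genes, with a median of -0.27. Over all genes it did so for 54.8%, and among the 739 genes with a mean of at least 12 for 72.4%. Wild type replicate 2 read above wild type replicate 1 for 27 of the 34, with a median of 0.05. It did so for 3227 of all 5449 genes and for 411 of the 739. In 11 genes, among them TIF34, GCD11 and DED1, the mutant was higher in replicate 1 and lower in replicate 2. Of all genes 11.3% had that arrangement. Without dis3E729K replicate 2, 23 of the 34 genes lay below zero with a median of -0.08, and without dis3E729K replicate 1, 32 did with a median of -0.34. Over all genes 55.3% lay below zero in either case, with medians of -0.06 and -0.08.

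**Figure D2:**
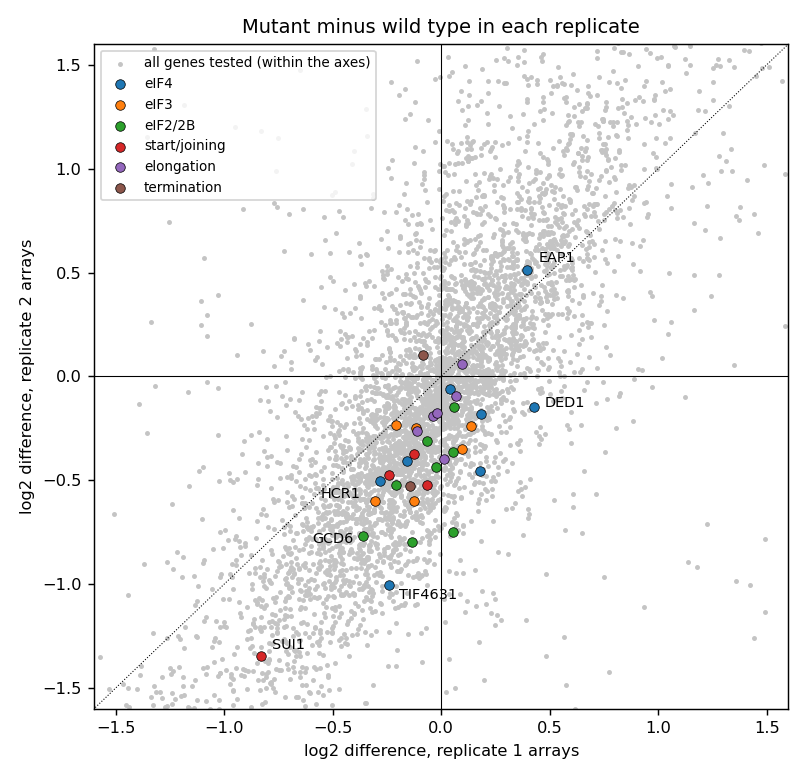
Log2 difference, mutant minus wild type, in the replicate 1 arrays (horizontal axis) and in the replicate 2 arrays (vertical axis); coloured points are the translation factor genes by role, grey points all genes tested within the axes, and the dotted line marks equal differences. Of the 34 coloured points, 32 lie under the dotted line, and SUI1 lies furthest down.

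The eIF4 group recognises the cap and unwinds the leader of the mRNA. Of its 8 measured genes 5 lay below zero, against 55.3% of all genes. In limma's test over all genes 0 passed, where 8.15% of all genes were called lower and 7.71% higher. At an unadjusted p under 0.05, 1 was lower and 1 higher, against 22.6% and 18.1% of all genes. The median difference of the 8 genes was -0.07, or 0.11 in replicate 1 and -0.30 in replicate 2. TIF4631 (YGR162W), 1 of the 2 genes for the scaffold eIF4G, read 11.85 and 12.15 in wild type and 11.61 and 11.15 in the mutant. Both mutant arrays lay below both wild-type arrays, by 0.24 in replicate 1 and 1.00 in replicate 2. The pooled log2 difference was -0.62 ± 0.22 (SE), with a 95% interval from -1.23 to -0.02 and an adjusted p of 0.117. TIF4632 (YGL049C), the other eIF4G gene, read 10.57 and 10.76 in wild type and 10.76 and 10.57 in the mutant, so the genotypes overlapped fully. Its difference of 0.00 ± 0.15 has an interval from -0.40 to 0.40.

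The 2 eIF4G genes therefore had different estimates. TIF4631 minus TIF4632 was 1.28 and 1.40 on the wild-type arrays and 0.86 and 0.57 on the mutant arrays, a change of -0.62 between genotypes with no overlap. An exact two-sided permutation test gave p = 0.333, the smallest that 2 arrays against 2 allow, and 0.5 adjusted over the 3 pairs compared, those of the 5 listed in which each gene had its own probe set. The 2 inhibitors of eIF4E had estimates of opposite sign. CAF20 (YOR276W), which blocks the binding of eIF4G to eIF4E, read 12.90 and 12.78 in wild type and 12.61 and 12.27 in the mutant, a difference of -0.39 ± 0.17 (SE). EAP1 (YKL204W), the second such protein, read 10.33 and 10.42 in wild type and 10.73 and 10.93 in the mutant. EAP1 was the gene with the highest estimate of the 34, at 0.46 ± 0.14 (adjusted p = 0.0864, interval from 0.08 to 0.83), with 0.40 and 0.51 within the replicate numbers. Neither gene's groups overlapped, and neither passed the test. CAF20 minus EAP1 changed by -0.85 between genotypes (exact two-sided permutation p = 0.333, again the smallest possible, 0.5 adjusted over the 3 pairs).

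Among the other genes of the eIF4 group, CDC33, which encodes the cap-binding eIF4E, read 13.01 and 12.90 in wild type and 12.86 and 12.49 in the mutant. Its difference was -0.28 ± 0.17 (SE), and the 2 groups did not overlap. DED1, a helicase needed for scanning, read 12.29 and 12.44 in wild type and 12.72 and 12.29 in the mutant, with opposite signs in the replicate numbers. The shared probe set of TIF2 for eIF4A was nearly level, at 13.77 and 13.78 in wild type and 13.82 and 13.72 in the mutant. Its interval ran from -0.34 to 0.31. TIF3, the eIF4B gene, had a difference of -0.14 ± 0.20, with opposite signs of 0.18 and -0.46 within the replicate numbers.

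The eIF3 complex holds the initiation factors together on the small subunit. All 6 of its measured subunit genes lay below zero, from -0.05 for TIF34 to -0.45 for HCR1, with a median of -0.20. In limma's test 0 passed, where 8.15% of all genes were called lower. At an unadjusted p under 0.05, 1 was lower, against 22.6% of all genes. The median of the 6 genes was -0.12 in replicate 1 and -0.30 in replicate 2. Estimates for TIF34 and TIF35 turned to 0.06 and 0.02 without dis3E729K replicate 2. HCR1 (YLR192C), a loosely bound subunit, read 12.15 and 12.23 in wild type and 11.84 and 11.63 in the mutant. The mutant was lower in both replicate numbers, by 0.31 and 0.60. The pooled difference was -0.45 ± 0.14 (SE, adjusted p = 0.0897, interval from -0.84 to -0.07). NIP1, the eIF3c subunit, read 12.67 on both wild-type arrays and 12.54 and 12.07 in the mutant, so most of its difference of -0.36 ± 0.20 came from mutant replicate 2. TIF34, the eIF3i subunit, overlapped, at 12.84 and 12.98 in wild type and 12.98 and 12.75 in the mutant. PRT1, the eIF3b subunit, had a difference of -0.18 ± 0.12, with -0.12 in replicate 1 and -0.25 in replicate 2. RPG1, eIF3a, had one of -0.22 ± 0.17, with -0.21 and -0.23, and was at -0.09 without dis3E729K replicate 2. TIF35, eIF3g, was at -0.13 ± 0.16, with 0.10 and -0.35.

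eIF2 carries the initiator tRNA, and eIF2B, its exchange factor, is the enzyme that the kinase Gcn2 restrains in starvation. The 5 eIF2B genes had a median of -0.36 and the 3 eIF2 genes a median of -0.19, and each of the 8 estimates was below zero. In limma's test 0 passed, where 8.15% of all genes were called lower. At an unadjusted p under 0.05, 1 was lower, against 22.6% of all genes. The eIF2B median was -0.13 in replicate 1 and -0.75 in replicate 2, and the eIF2 median -0.02 and -0.31. Without dis3E729K replicate 2 they were -0.23 and -0.04. GCD6 (YDR211W), the catalytic epsilon subunit of eIF2B, read 11.62 and 11.68 in wild type and 11.26 and 10.91 in the mutant. Its groups did not overlap, with -0.36 and -0.77 within the replicate numbers and -0.56 ± 0.17 (SE) pooled (adjusted p = 0.0839, interval from -1.02 to -0.11). GCN3, the regulatory alpha subunit, read 11.14 and 11.42 in wild type and 11.004 and 10.63 in the mutant. Its difference of -0.46 ± 0.20 came mainly from replicate 2, where it was -0.80, against -0.13 in replicate 1. GCD2, the delta subunit, differed by -0.36 ± 0.15 without overlap, with -0.21 and -0.52 within the replicate numbers. GCD1, the gamma subunit, and GCD7, the beta subunit, overlapped. GCD1 was at -0.35 ± 0.23, with 0.06 in replicate 1 and -0.75 in replicate 2, and GCD7 at -0.15 ± 0.16, with 0.06 and -0.36.

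Of the eIF2 subunit genes, GCD11, for the GTP-binding gamma subunit, read 13.07 and 13.11 in wild type and 13.13 and 12.97 in the mutant, so the groups overlapped. Its difference was -0.04 ± 0.13 (SE), and 0.04 without dis3E729K replicate 2. SUI2, the alpha subunit that Gcn2 phosphorylates, differed by -0.23 ± 0.18 without overlap, nearly all of it in replicate 2, with -0.02 in replicate 1 and -0.44 in replicate 2. SUI3, the beta subunit, differed by -0.19 ± 0.14 without overlap, with -0.07 and -0.31. Without dis3E729K replicate 2 the estimates were -0.04 for SUI2 and -0.07 for SUI3. The difference between the eIF2B and eIF2 medians was not tested. Brightness differed too, with gene means from 10.98 to 11.37 for eIF2B and from 12.30 to 13.07 for eIF2. Over all genes the median absolute difference was 0.43 for means under 12, 0.29 between 12 and 13, and 0.17 above 13.

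**Figure D3:**
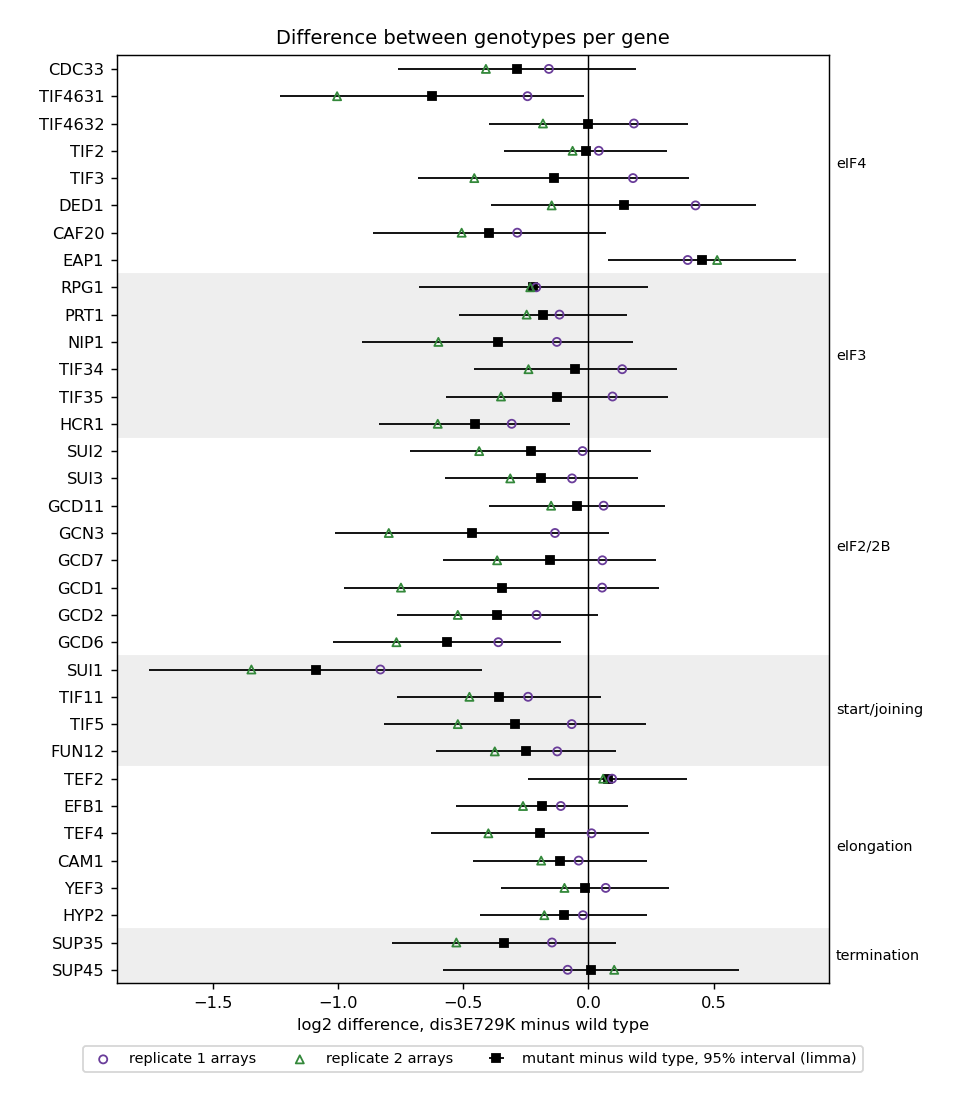
Log2 difference, dis3E729K minus wild type (horizontal axis), for the 34 measured genes by role; squares and bars give limma's estimate and its 95% interval, open circles the replicate 1 arrays and open triangles the replicate 2 arrays. The bar excludes zero for SUI1, GCD6, HCR1, TIF4631 and EAP1, before adjustment over genes.

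Start codon selection and subunit joining had the lowest estimate. SUI1 (YNL244C) encodes eIF1, which keeps the scanning ribosome open until a start codon is met. It read 12.82 and 12.73 in wild type and 11.99 and 11.38 in the mutant. The gap between the genotypes was wider than the gap between cultures of either one. The log2 difference was -1.09 ± 0.24 (SE), 2.13-fold lower, with a 95% interval from -1.75 to -0.42. It was -0.83 within replicate 1 and -1.35 within replicate 2. Its adjusted p was 0.0538, and over the alternative settings it ranged from 0.0444, without dis3E729K replicate 1, to 0.212, with no variance moderation. SUI1 also passed, at 0.0469, with an intensity trend in the variance prior, where 479 of all 5449 genes were called lower.

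The other 3 genes of this step lay between -0.36 and -0.25, and none overlapped between genotypes. TIF11, the gene for eIF1A, the partner of eIF1 in scanning, read 12.93 and 12.90 in wild type and 12.69 and 12.42 in the mutant, a difference of -0.36 ± 0.15 (SE, adjusted p = 0.152), with -0.24 in replicate 1 and -0.47 in replicate 2. FUN12, for the subunit-joining GTPase eIF5B, read 13.23 and 13.30 in wild type and 13.10 and 12.93 in the mutant, a difference of -0.25 ± 0.13, with -0.12 and -0.37. TIF5, for eIF5, which triggers GTP hydrolysis on eIF2, differed by -0.29 ± 0.19, with -0.07 in replicate 1 and -0.52 in replicate 2. Both mutant arrays lay below both wild-type arrays in all 4 genes of the step, an arrangement that 41.8% of all genes tested showed.

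Elongation factor genes had estimates near zero, and the median of their gene means was 13.76. All genes with a mean of at least 13 had a median absolute difference of 0.17. Of the 6 elongation genes measured 5 lay below zero, and the range ran from -0.19 to 0.08. In limma's test 0 passed at an adjusted or an unadjusted p under 0.05. Over all genes 8.15% and 22.6% were lower at those levels, and 7.71% and 18.1% higher. The median of the 6 genes was -0.11, with -0.0043 in replicate 1 and -0.18 in replicate 2, and -0.04 without dis3E729K replicate 2. The shared probe set of TEF2 for eEF1A, which brings aminoacyl-tRNA to the ribosome, read 14.46 and 14.45 in wild type and 14.56 and 14.51 in the mutant. It stood slightly higher in both mutant cultures, by 0.08 ± 0.12 (SE), and by 0.0087 with quantile normalization over the tested genes. YEF3, for the fungal ATPase eEF3, read 13.98 and 14.02 in wild type and 14.05 and 13.93 in the mutant. It overlapped, and its interval from -0.35 to 0.32 bounds the difference. EFB1, the eEF1B alpha exchange factor, differed by -0.19 ± 0.13, with -0.11 and -0.26 within the replicate numbers. HYP2, the main eIF5A gene, differed by -0.10 ± 0.12, with -0.02 and -0.18.

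The gamma subunit of eEF1B has 2 genes. TEF4 read 13.43 and 13.54 in wild type and 13.44 and 13.14 in the mutant, and CAM1 read 12.36 and 12.52 in wild type and 12.32 and 12.33 in the mutant. Both lay slightly below wild type, with TEF4 at -0.19 ± 0.16 (SE) and CAM1 at -0.11 ± 0.13. CAM1 minus TEF4 changed by 0.08 between genotypes (exact two-sided permutation p = 1, also 1 adjusted over the 3 pairs), and by -0.08 without dis3E729K replicate 2.

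The 2 termination factor genes had different estimates, and their difference was not tested. SUP35, for the GTPase eRF3, read 12.48 and 12.53 in wild type and 12.34 and 12.003 in the mutant, a difference of -0.34 ± 0.16 (SE) without overlap. SUP45, for eRF1, which reads stop codons, read 13.43 and 12.97 in wild type and 13.35 and 13.07 in the mutant. In SUP45 the replicate number divided the arrays and the genotype did not, and the difference was 0.01 ± 0.22.

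The groups did not overlap for 21 of the 34 genes, 19 lower and 2 higher in the mutant, against 41.8% of all genes lower and 32.3% higher. The lower ones make up 55.9% of the members. The 2 higher genes were EAP1 and TEF2. Intervals limit what could have been missed: the 95% interval lay within 1 log2 unit of zero for 30 of the 34 genes, and within 0.5 for 8. Size of the difference went with brightness. The 9 members with a mean under 12 had a median absolute difference of 0.45, the 16 between 12 and 13 one of 0.22, and the 9 above 13 one of 0.08. Over all genes the same ranges gave 0.43, 0.29 and 0.17, and 17.6%, 7.54% and 1.04% of genes were called. Whether bright probe sets understate differences was not tested.

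Some translation factors exist as a main gene and a relative, and these relatives were examined after their values were seen. DBP1, a paralogue of DED1, read 8.69 and 7.63 in wild type and 8.91 and 10.04 in the mutant. It was higher in both mutant cultures, by 0.23 in replicate 1 and 2.41 in replicate 2, and did not pass (1.32 ± 0.55 SE, adjusted p = 0.151). HEF3, the paralogue of YEF3, read 7.999 and 7.76 in wild type and 8.12 and 8.999 in the mutant, again highest in mutant replicate 2 (0.68 ± 0.33, adjusted p = 0.201). ANB1, the eIF5A gene that is expressed when oxygen is low, read 9.54 and 11.56 in wild type and 9.98 and 9.75 in the mutant. Here wild type replicate 2, the array with MET17 signal, stood apart from the other 3, while HYP2 read 13.70 and 13.74 in wild type and 13.67 and 13.56 in the mutant.

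**Figure D4:**
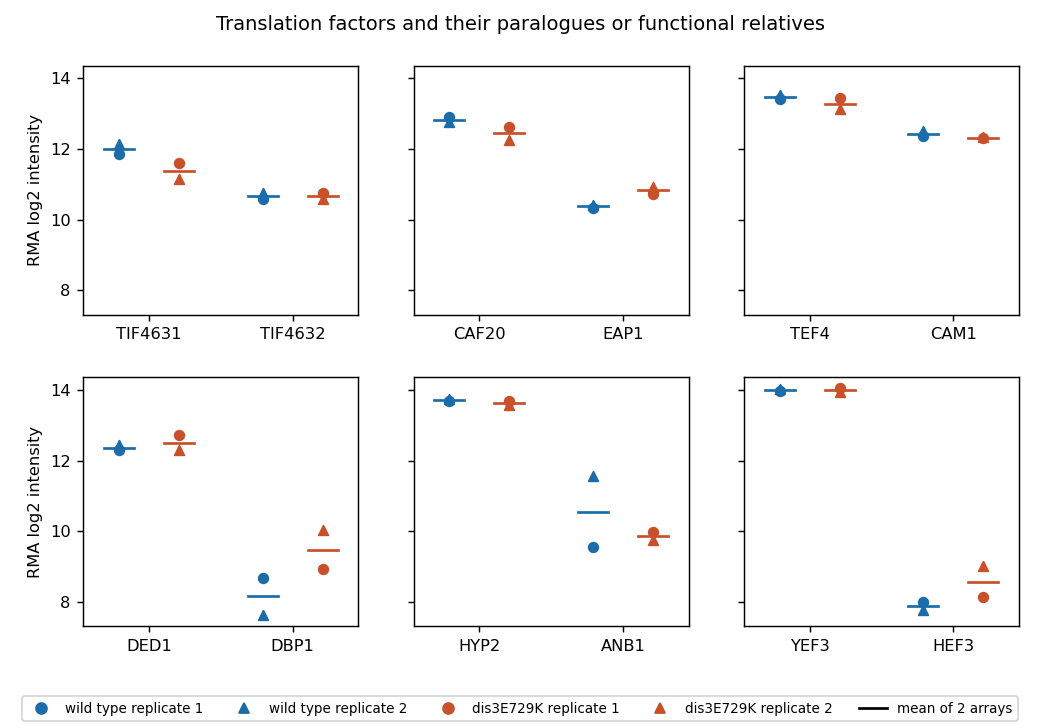
RMA log2 intensity (vertical axis) of 6 pairs of related genes; blue marks are wild type, orange marks dis3E729K, circles replicate 1, triangles replicate 2, and bars the mean of 2 arrays. ANB1 stands high on wild type replicate 2 at 11.56, and DBP1 and HEF3 are highest on dis3E729K replicate 2, at 10.04 and 8.999.

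Beside the 34 genes, 33 of 36 other listed cytosolic factors, relatives and modifying enzymes were measured. They had a median of -0.20, with -0.05 and -0.39 within the replicate numbers. In limma's test 0 passed, where 8.15% of all genes were called lower and 7.71% higher. At an unadjusted p under 0.05, 6 were lower and 1 was higher, against 22.6% and 18.1% of all genes. The 2 nearest to the threshold, named after their values were seen, were GCN2, the eIF2 kinase, at -0.57 ± 0.12 (SE, adjusted p = 0.0509), and SRO9, an RNA-binding protein associated with translating ribosomes, at -1.38 ± 0.29 (adjusted p = 0.0511). SRO9 read 12.83 and 12.85 in wild type and 11.85 and 11.07 in the mutant, an arrangement like that of SUI1. EFT2, for eEF2, the translocase, has a probe set of the shared kind and read 14.01 and 14.06 in wild type and 14.12 and 14.04 in the mutant. Cytosolic ribosomal protein genes, 127 by symbol, had a median of -0.22, with -0.14 in replicate 1 and -0.29 in replicate 2. Of the 127, 124 lay below zero, against 55.3% of all genes, and 109 were lower without overlap, against 41.8%. By limma's test 3 of the 127 were called lower, against 8.15% of all genes. With the replicate number as a block 1 was, where 144 of all 5449 genes were.

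Most mitochondrial translation factors had estimates of the opposite sign. Of 8 genes, 7 lay above zero, against 44.7% of all genes, with a median of 0.16, or 0.17 and 0.16 within the replicate numbers. TUF1 and GUF1 were near zero, at 0.017 and 0.0095, and overlapped between genotypes. Within the replicate 1 arrays 3 of the 8 genes were lower in the mutant, and within the replicate 2 arrays 1 was. Of the 8, 2 rose, where 7.71% of all genes were called higher. AIM23, the mitochondrial initiation factor of the IF3 type, read 9.61 and 9.54 in wild type and 10.17 and 10.35 in the mutant, a rise of 0.68 ± 0.13 (SE, limma adjusted p = 0.0453). RRF1, the mitochondrial ribosome recycling factor, read 8.86 and 8.75 in wild type and 9.43 and 9.48 in the mutant, a rise of 0.65 ± 0.12 (adjusted p = 0.0436). With the replicate number as a block neither passed, at adjusted p of 0.101 and 0.103, and neither passed without any single array. IFM1, the mitochondrial IF2 and the exception in sign, named after its values were seen, read 9.18 and 9.01 in wild type and 8.82 and 8.69 in the mutant. Its difference was -0.34 ± 0.14 (adjusted p = 0.140) without overlap. The difference between mitochondrial and cytosolic factors was not tested.

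**Figure D5:**
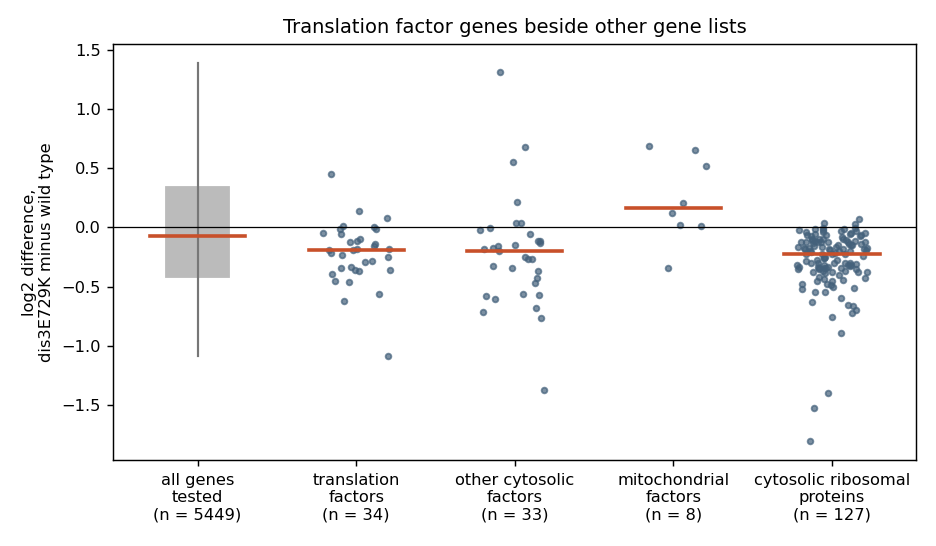
Log2 difference, dis3E729K minus wild type (vertical axis), for gene lists; points are genes, orange bars medians, and for all 5449 genes the box spans the quartiles and the line the 5th to 95th percentile. The median is -0.19 for the translation factors, -0.22 for cytosolic ribosomal proteins and 0.16 for mitochondrial factors.

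Chromosomal neighbours were compared for the genes with the lowest and the highest estimate, by gene order alone. Next to SUI1, CWC25, a splicing factor gene, differed by -0.64 ± 0.17 (SE, adjusted p = 0.0741) and SLA2, an endocytosis gene, by -0.01 ± 0.13. Both neighbours of EAP1 had estimates of the other sign from EAP1: LOS1, a tRNA exporter gene, at -0.77 ± 0.22 (adjusted p = 0.0805) and TOR2, a kinase gene, at -0.60 ± 0.13 (adjusted p = 0.0511).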

How the data were processed

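Per the submitters' processing notes, the authors worked with RMA in Affymetrix Expression Console, and with Transcriptome Analysis Console. Each deposited value is the log2 intensity of a probe set on an array, after background subtraction, quantile normalization and probe summary as RMA does them. Their versions and the genome build are not given in the sources used here. No coordinates are printed. No sequence table was used.

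Of 10928 probe sets, 5498 were tied to 1 S. cerevisiae gene through the platform annotation and Entrez identifiers of assembly R64. For genes with several probe sets (47) the one with the highest mean over the 4 arrays was kept, leaving 5449 genes. Background is the 95th percentile of 1746 probe sets of another species on the mean of the arrays.

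The genotype difference was fitted by limma 3.58.1 under R 4.3.3 (lmFit, eBayes, 2 residual and 2.18 prior degrees of freedom), with Benjamini-Hochberg adjustment over all genes at 0.05. With 2 arrays per group, their number limits precision, and p-values measure the spread between these cultures, which the labels call biological replicates. The procedure was tested on simulated data with independent noise and no difference in mating type between replicates, so that test does not cover such a difference. Pairs of related genes were compared by an exact permutation test. Tables and plots used Python 3.11.15, pandas 2.3.3 and matplotlib 3.10.9.

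The members and lists were chosen with earlier results of these data known. All 36 members are named. The rule gave array values to members past the threshold, to pairs of related genes and to the brightest member of each role; no member passed, so array values of other members were chosen after they were seen. Alternatives were the replicate block, other variance priors, normalizations, filters, probe set choices, a threshold of 0.1 and each array left out; the values within each replicate number were added after the mating type genes were seen. The main fit did not pair the cultures by replicate number, since the labels state no pairing. Mating type did follow replicate number in both genotypes, and the main fit leaves it in the residual spread. The MET17 signal did not follow it, at 9.55 in wild type replicate 2 and 3.47 in mutant replicate 2, so the replicate block does not model it. Over 5449 genes the replicate 2 minus replicate 1 differences of wild type and mutant correlated at r = 0.08, and at -0.23 without the listed mating type genes. A correlation over all genes cannot decide which single genes vary with mating type.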

Additional observations from a re-analysis of the deposited data

How the results depend on the processing

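Over the 34 translation factor genes, 0 were called higher under the 13 alternative fits, and 1 at an adjusted p under 0.1. The count lower was 1 (SUI1) with an intensity trend in the variance prior, 0 to 1 with an array left out (1 without dis3E729K replicate 1), and 3 at an adjusted p under 0.1 (SUI1, GCD6 and HCR1). Where an array was left out, the lone culture was assumed to vary like the others. The median log2 difference of the 34 ranged from -0.34 to -0.081 with an array left out and was -0.37 in the replicate 2 arrays alone. The replicate block changed no call among the 34. It left 199 genes higher and 144 lower over all genes, against 420 and 444. With the intensity trend, 445 of all genes were higher and 479 lower. Without variance moderation 0 were higher and 2 lower, at an adjusted p under 0.1 883 were higher and 1069 lower, and with an array left out 0 to 316 were higher and 0 to 351 lower. Without dis3E729K replicate 2, 0 genes passed in either direction.

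Estimates near zero changed sign. TIF2 and YEF3 were 0.048 and 0.035 with quantile normalization over the tested genes, and 0.0035 and 0.0012 with median centring. With an array left out, ranges were -0.090 to 0.091 for TIF4632, -0.058 to 0.036 for TIF2, -0.34 to 0.065 for TIF3, -0.074 to 0.36 for DED1, -0.17 to 0.064 for TIF34, -0.27 to 0.022 for TIF35, -0.13 to 0.038 for GCD11, -0.072 to 0.046 for YEF3, -0.22 to 0.24 for SUP45, -1.69 to 0.33 for ANB1, and -0.076 to 0.24 for CAM1 minus TEF4. SRO9 passed with the intensity trend, without cross-hybridising probe sets and without dis3E729K replicate 1, GCN2 without cross-hybridising probe sets, and ANB1 without wild type replicate 1. AIM23 and RRF1 also did not pass without variance moderation. The cause of these changes was not tested.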
